A study of Homo sapiens with 77 samples.

Results

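The 7 Fc receptor-like genes FCRL1, FCRL2, FCRL3, FCRL4, FCRL5, FCRLA and FCRLB were followed by RNA-seq through diffuse large B cell lymphoma lines treated with inhibitors of EZH2 and of menin. The set was taken by symbol and was chosen by a measured value, the large rise of FCRL5 under both drugs in KARPAS422. All 7 symbols were present among 35813 genes of the MI-503 experiment and among 21455 genes of the combination experiment. In the MI-503 experiment KARPAS422, DB, Farage and SUDHL5 cells received 800 nM MI-503, an inhibitor of the interaction of menin with MLL1, or the solvent DMSO for 3 days. In the combination experiment KARPAS422 (48 h) and SuDHL10 (24 h) received 1 µM EPZ-6438 (tazemetostat, an EZH2 inhibitor) together with 330 nM VTP50469 (a second menin inhibitor), EPZ-6438 alone, VTP50469 alone, or DMSO. KARPAS422, DB and SuDHL10 carry mutant EZH2, whereas Farage and SUDHL5 carry wildtype EZH2. Every group had 2 libraries, and the labels do not say whether they came from separate cultures, so the tests measure the spread between these libraries.

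Fc receptor-like proteins belong to the immunoglobulin superfamily and are related to the classical Fc receptors for antibody. FCRL1 to FCRL5 span the membrane of B lineage cells and tune signaling from the B cell receptor through tyrosine motifs in their tails, of the activating kind (ITAM-like), the inhibitory kind (ITIM) or both. FCRLA and FCRLB lack a membrane-spanning segment and stay inside the cell. EZH2 is the enzyme of PRC2 that methylates lysine 27 of histone H3, a mark of silent genes, and menin carries MLL1 to promoters.

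By GENCODE v44 on hg38, FCRL5 (chr1:157513377-157552515), FCRL4 (chr1:157573747-157598085), FCRL3 (chr1:157674321-157700769), FCRL2 (chr1:157745733-157777132) and FCRL1 (chr1:157794403-157820120) all lie on the minus strand. They fill 306.7 kb with 0 other protein-coding genes between them. FCRLA (chr1:161706972-161714352) and FCRLB (chr1:161721544-161728143) lie on the plus strand, 3.89 Mb away, within 21.2 kb. FCRL3 overlaps a lncRNA of the opposite strand over 4698 bases of gene span, introns included. Whether their exons overlap was not measured, and no source used here gives the strand setting of the counting, so reads shared by the pair were not assessed.

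The promoters of FCRL5, FCRL3 and FCRLB are shown, picked with the changes described below in view. FCRL1 and FCRL2 also changed, and their promoters are not printed. Each is the RefSeq window of GRCh38.p14 from 250 bases before to 50 bases after the start, read along the gene (FCRL5 chr1:157552466-157552765, FCRL3 chr1:157700720-157701019, FCRLB chr1:161721294-161721593). Capitals mark matches on either strand to 5 motifs searched, the octamer ATGCAAAT, the PU.1 core GAGGAAGT, the TATA box TATAAA, the CCAAT box CCAAT and the E-box CAGCTG.
FCRL5: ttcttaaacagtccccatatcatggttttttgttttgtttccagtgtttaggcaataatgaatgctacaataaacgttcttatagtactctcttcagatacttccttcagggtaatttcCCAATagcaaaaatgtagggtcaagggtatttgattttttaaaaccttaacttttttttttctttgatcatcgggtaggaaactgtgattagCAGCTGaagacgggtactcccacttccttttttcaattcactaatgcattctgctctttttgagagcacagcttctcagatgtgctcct
FCRL3: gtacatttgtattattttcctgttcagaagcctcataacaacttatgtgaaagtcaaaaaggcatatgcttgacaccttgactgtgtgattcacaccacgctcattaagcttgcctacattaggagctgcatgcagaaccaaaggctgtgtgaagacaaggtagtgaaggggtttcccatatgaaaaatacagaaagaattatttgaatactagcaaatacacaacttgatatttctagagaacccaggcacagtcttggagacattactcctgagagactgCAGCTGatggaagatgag
FCRLB: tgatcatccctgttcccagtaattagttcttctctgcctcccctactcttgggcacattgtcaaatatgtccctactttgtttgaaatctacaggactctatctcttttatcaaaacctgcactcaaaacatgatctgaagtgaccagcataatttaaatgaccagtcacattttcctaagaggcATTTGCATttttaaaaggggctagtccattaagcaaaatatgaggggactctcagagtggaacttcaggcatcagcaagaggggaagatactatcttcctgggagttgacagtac
All 7 genes had a window in the RefSeq table, FCRLB with 3 starts, which made 9 windows. These 9 windows held 0 to 3 CpG dinucleotides, against a median of 14 over all 35114 promoter windows, of which 24.5% held 3 or fewer. The FCRLB window above held an octamer, read on the opposite strand, 65 bases before the start, and 1.77% of all windows held one. No other FCRLB window held an octamer. The window at chr1:161722007-161722306 held a CCAAT box 65 bases and an E-box 1 base before its start. That at chr1:161722403-161722702 held an E-box 3 bases before its start. FCRL5 held a CCAAT box 131 bases and an E-box 39 bases before its start, and these motifs occurred in 34.62% and 17.94% of all windows. FCRL3 held an E-box 32 bases after its start. A PU.1 core stood 16 bases before the start of FCRL1 and 44 bases before that of FCRLA, and 2.59% of all windows held one. A match describes the letters only.

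Library totals ran from 13034958 to 54883332 counts with MI-503 and its controls, and from 8956156 to 31573027 counts in the combination experiment. Of 7 listed B cell markers, MS4A1 lay between 661.2 and 2406 CPM (counts relative to the library total, scaled by TMM) over all 32 libraries, CD79A between 487.7 and 1106 CPM, and PAX5 between 249.7 and 662.4 CPM. All 7 summed to 3498 to 4869 CPM in the MI-503 experiment and 3526 to 6127 CPM in the combination experiment. With MI-503 1 was higher and 1 lower in DB (26.4% of all genes called) and 1 lower in SUDHL5 (14.1%). With both drugs 1 was higher in KARPAS422 (35.0%). Summed erythroid markers stayed at or under 2.01 CPM, with 1 exception. The library Farage MI-503 replicate 1 had 26.4 CPM of erythroid and 66.9 CPM of epithelial markers, against 0.356 to 0.654 CPM and 12.2 to 15.98 CPM in the other Farage libraries. Both-drug replicates of KARPAS422 stood furthest apart, with a chi-square of 47.45 per gene between them, against 1.824 to 27.69 for the other pairs of that experiment. Changes of the 7 genes that rest on these libraries are given below, in most cases, with and without them, and values of other genes include them.

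FCRL5, a receptor for IgG found on memory B cells and plasma cells, was low in KARPAS422 of the combination experiment and high after both drugs. KARPAS422 with both drugs had 20.0 and 15.99 CPM (385 and 279 counts), cells with EPZ-6438 alone 2.44 and 1.87 CPM, cells with VTP50469 alone 0.996 and 0.876 CPM, and DMSO cells 0.156 and 0.514 CPM (2 and 10 counts). The 4 groups did not overlap and fell in the order both drugs, EPZ-6438, VTP50469, DMSO. On the log2 scale FCRL5 was 5.60 ± 0.55 (SE) above DMSO with both drugs, 2.55 ± 0.51 with EPZ-6438 and 1.40 ± 0.51 with VTP50469. Since FCRL5 was picked for this pattern, these values are a description and carry no test. The pooled counts, 664 with both drugs against 12 with DMSO, gave a ratio of 48.7 with a 95% interval of 27.7 to 94.7, which covers counting error only. DMSO cells of this line had 2.64 and 3.67 CPM in the MI-503 experiment, so the ratio holds for the DMSO level of the combination experiment only. Without both-drug replicate 1 the difference was 5.19 and without replicate 2 it was 5.73, the lone library being taken to vary like the other groups.

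**Figure D1:**
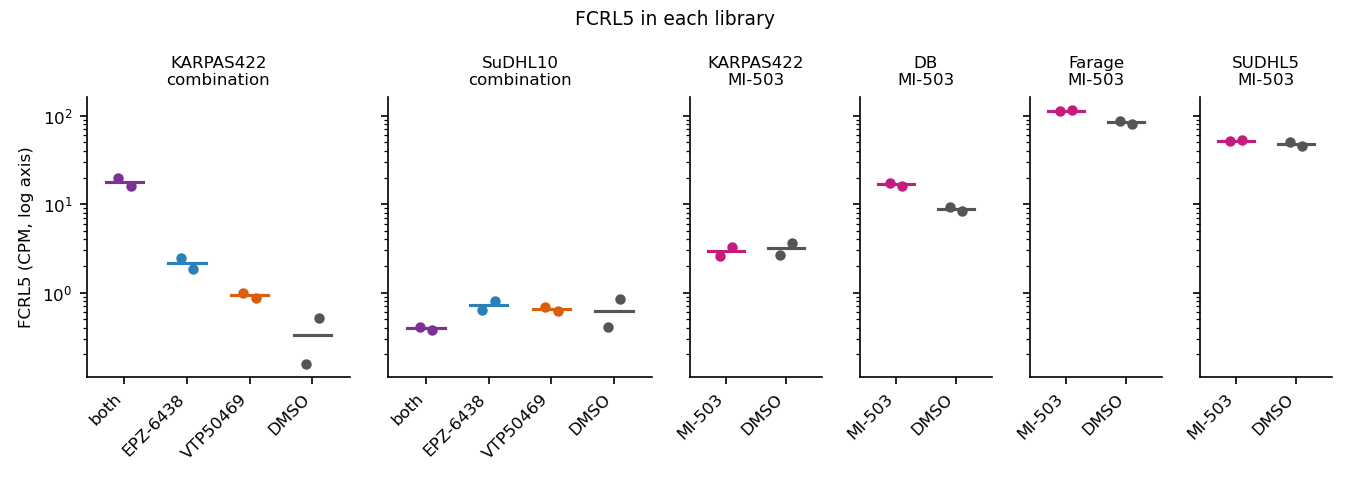
FCRL5 in each library on a log axis of CPM. Points are libraries and bars are the means of 2, with the combination experiment in the first 2 panels and the MI-503 experiment in the other 4. FCRL5 reached 20.0 and 15.99 CPM only in KARPAS422 with both drugs among the combination libraries, and Farage and SUDHL5 were above that in every library.

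FCRL5 stayed low in SuDHL10 under the same drugs. It had 0.413 and 0.376 CPM with both drugs, 0.629 and 0.809 CPM with EPZ-6438, 0.683 and 0.617 CPM with VTP50469, and 0.408 and 0.840 CPM with DMSO. These were 6 to 20 counts per library, and the groups with both drugs and with DMSO overlapped. The fold change with both drugs was -0.68 ± 0.45 on the log2 scale (adjusted p = 0.33, edgeR's quasi-likelihood test). Pooled counts of 14 with both drugs and 25 with DMSO gave a ratio of 0.603 (95% interval 0.290 to 1.21), which covers counting error only. The change with both drugs, SuDHL10 minus KARPAS422, was -6.17 ± 0.72 on the log2 scale, a description for the reason above. The lines were treated for 24 h and 48 h, so line and time cannot be told apart.

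The other genes of the cluster in KARPAS422 are set out by their role. A gene is called here when its adjusted p was under 0.1 and its fold change above 1.5, the thresholds of the study. FCRL3, which carries both kinds of tyrosine motif, had 339.8 and 275.8 CPM with both drugs, 170.3 and 163.6 CPM with EPZ-6438, 161.1 and 155.0 CPM with VTP50469, and 94.7 and 82.9 CPM with DMSO. It rose with either single drug, by 0.87 ± 0.15 on the log2 scale with EPZ-6438 (adjusted p = 0.021) and by 0.84 ± 0.15 with VTP50469 (adjusted p = 0.055). Apart from FCRL5, which carries no test here, it was the 1 called gene of the family in both comparisons, where 9.39% (EPZ-6438) and 2.47% (VTP50469) of all tested genes were called. Both single-drug comparisons share the DMSO libraries. The EPZ-6438 call was lost without EPZ-6438 replicate 2 (0.91, adjusted p = 0.54), without VTP50469 replicate 1 (0.88, adjusted p = 0.25) and without DMSO replicate 2 (0.68, adjusted p = 0.10). The VTP50469 call was lost without either EPZ-6438, either VTP50469 or either DMSO library, at 0.72 to 0.95 on the log2 scale and adjusted p of 0.12 to 1.

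FCRL3 was also higher with both drugs than with either alone. The difference was 0.87 ± 0.15 against EPZ-6438 and 0.91 ± 0.15 against VTP50469. FCRLB, an intracellular member, was lower, by -0.71 ± 0.08 against EPZ-6438 and by -0.76 ± 0.08 against VTP50469. Both genes passed the call thresholds, as did FCRL5, where 12.1% and 24% of all genes were called. These comparisons share the both-drug libraries the set was picked in, so the values are descriptions and nothing is read from the calls. Without both-drug replicate 1 FCRL3 was 0.46 against EPZ-6438 and 0.50 against VTP50469, under the fold threshold. By the adjusted p, FCRL3 further failed the thresholds against EPZ-6438 without EPZ-6438 replicate 1 (0.96), EPZ-6438 replicate 2 (0.79) or VTP50469 replicate 1 (0.81). Against VTP50469 FCRL3 failed them without EPZ-6438 replicate 2 (0.85) or VTP50469 replicate 1 (0.87). FCRLB failed them against EPZ-6438 without EPZ-6438 replicate 2 (-0.83) or VTP50469 replicate 1 (-0.79), and against VTP50469 without VTP50469 replicate 1 (-0.77).

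FCRLB in KARPAS422 had 912 and 926 CPM with both drugs, 1542 and 1440 CPM with EPZ-6438, 1558 and 1424 CPM with VTP50469, and 1655 and 1834 CPM with DMSO. All 6 drug-treated libraries lay under both DMSO libraries, and with both drugs the level was -0.98 ± 0.08 on the log2 scale. How many of all genes had that order was not counted, so nothing is read from it. FCRLA, its neighbour, had 589.6 and 527.0 CPM with both drugs and 541.8 and 501.0 CPM with DMSO, and these groups overlapped.

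FCRL1, an activating coreceptor of B cells, had 453.9 and 314.2 CPM with both drugs, 316.4 and 322.1 CPM with EPZ-6438, 259.9 and 262.3 CPM with VTP50469, and 255.4 and 219.0 CPM with DMSO. FCRL2, which carries inhibitory motifs and is found on memory B cells, had 482.4 and 370.7 CPM with both drugs, 309.6 and 294.5 CPM with EPZ-6438, 339.6 and 326.5 CPM with VTP50469, and 249.5 and 213.0 CPM with DMSO. FCRL4, a marker of tissue memory B cells, had 26 and 37 counts with both drugs, 7 and 18 with EPZ-6438, 5 and 13 with VTP50469, and 2 and 7 with DMSO. In all 3 genes both libraries with both drugs exceeded both DMSO libraries. The share of all genes in that order was not counted and the set was chosen in this comparison, so nothing is read from it. Against DMSO the differences with both drugs were 0.65 ± 0.20 for FCRL1, 0.84 ± 0.17 for FCRL2, 1.74 ± 0.15 for FCRL3 and 2.62 ± 0.82 for FCRL4, on the log2 scale. With both drugs 6 of the 7 genes passed the call thresholds, where 35.0% of all genes did and the median of all genes was 0.10; the set was chosen in this comparison, so nothing is read from that count. Without both-drug replicate 1 the differences were 0.12 for FCRL1, 0.39 for FCRL2, 1.35 for FCRL3, 2.67 for FCRL4 and -1.20 for FCRLB. Neither FCRL1, FCRL2 nor FCRL4 was called with a single drug. FCRL4 was 1.87 ± 0.78 higher with both drugs than with VTP50469, a description that did not pass the call thresholds. With the replicate block, which pairs libraries of the same number, FCRL4 passed them (1.97).

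**Figure D2:**
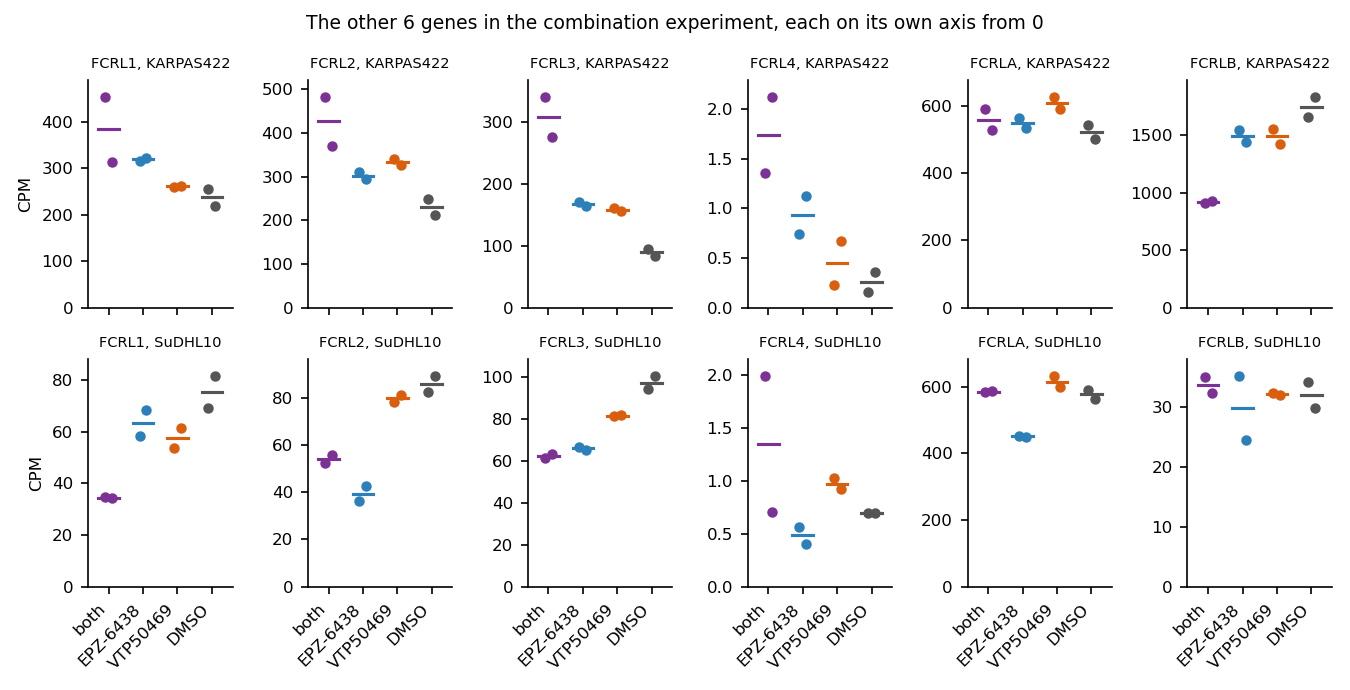
CPM of FCRL1, FCRL2, FCRL3, FCRL4, FCRLA and FCRLB in the combination experiment, KARPAS422 above and SuDHL10 below, each panel on its own linear axis from 0. Points are libraries and bars the means of 2. With both drugs FCRL3 was at 339.8 and 275.8 CPM in KARPAS422, above the DMSO libraries, and at 61.4 and 63.1 CPM in SuDHL10, below them.

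SuDHL10 showed a different picture, in which the called genes were all lower. FCRL2 had 52.4 and 55.9 CPM with both drugs, 36.3 and 42.6 CPM with EPZ-6438, 78.4 and 81.1 CPM with VTP50469, and 82.7 and 89.3 CPM with DMSO. It fell by 1.12 ± 0.11 on the log2 scale with EPZ-6438 (adjusted p = 0.00060) and by 0.64 ± 0.11 with both drugs (adjusted p = 0.0052). The EPZ-6438 change was among the steepest falls, 18th from the bottom of 11409 genes, and FCRL2 was the 1 member called, against 9.92% of all genes. Leaving out 1 library at a time gave -1.21 to -1.02 for EPZ-6438, and FCRL2 was called each time.

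FCRL1 had 34.5 and 34.2 CPM in SuDHL10 with both drugs, 58.2 and 68.3 CPM with EPZ-6438, 53.6 and 61.6 CPM with VTP50469, and 69.4 and 81.6 CPM with DMSO. The both-drug libraries lay under all 6 others, an order whose share among all genes was not counted. FCRL1 fell by 1.11 ± 0.13 on the log2 scale with both drugs (adjusted p = 0.0012), and was -0.86 ± 0.13 against EPZ-6438 alone (adjusted p = 0.017) and -0.73 ± 0.13 against VTP50469 alone (adjusted p = 0.017). FCRL1 was the 1 gene of the family called against either single drug, where 2.39% (EPZ-6438) and 7.69% (VTP50469) of all genes were called. The call against EPZ-6438 was lost without both-drug replicate 1 (-0.86, adjusted p = 0.22) or replicate 2 (-0.86, adjusted p = 0.25). The call against VTP50469 was lost without both-drug replicate 1 (-0.73, adjusted p = 0.13), replicate 2 (-0.73, adjusted p = 0.14) or VTP50469 replicate 2 (-0.64, adjusted p = 0.12).

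FCRL3 had 61.4 and 63.1 CPM in SuDHL10 with both drugs, 66.7 and 65.2 CPM with EPZ-6438, 81.4 and 81.8 CPM with VTP50469, and 94.1 and 100.6 CPM with DMSO. It fell by 0.62 ± 0.09 on the log2 scale with both drugs (adjusted p = 0.0033), and with EPZ-6438 its change of -0.55 ± 0.09 (adjusted p = 0.0063) was under the fold threshold. Both drugs thus gave 3 called members, FCRL1, FCRL2 and FCRL3, while 11.8% of all genes were called. Without DMSO replicate 2 FCRL2 (-0.55) and FCRL3 (-0.54) were under the fold threshold.

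FCRLA had 583.6 and 587.0 CPM in SuDHL10 with both drugs, 452.7 and 450.4 CPM with EPZ-6438, 632.3 and 598.1 CPM with VTP50469, and 590.1 and 564.4 CPM with DMSO. Its change with EPZ-6438 was -0.35 ± 0.08 (adjusted p = 0.021), under the fold threshold. FCRLB stayed between 24.6 and 35.2 CPM in all 8 SuDHL10 libraries, and its groups with both drugs and with DMSO overlapped. FCRL4 had 29 and 15 counts with both drugs, 9 and 8 with EPZ-6438, 30 and 9 with VTP50469, and 12 and 15 with DMSO. It was 0.88 ± 0.47 against DMSO (adjusted p = 0.24) and 1.41 ± 0.52 against EPZ-6438 (adjusted p = 0.19) with both drugs, and the replicate block called both (0.86, adjusted p = 0.090, and 1.40, adjusted p = 0.025). Without both-drug replicate 2 FCRL4 was 1.52 against DMSO (adjusted p = 0.064) and called.

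With VTP50469 alone none of the 7 genes was called in SuDHL10, and neither was any of all 11409 genes (0%) by edgeR. At an unadjusted p under 0.05 there were 724 genes, DESeq2 called 7, and edgeR with the replicate block called 116, with no member among them. FCRL1 had the lowest of the members' fold changes, -0.38 ± 0.13 (adjusted p = 0.67).

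Whether a drug changed a gene differently in the 2 lines was tested directly. With EPZ-6438 the change in SuDHL10 minus that in KARPAS422 was -1.47 ± 0.19 for FCRL2 (adjusted p = 0.0013) and -1.43 ± 0.15 for FCRL3 (adjusted p = 0.00070), both called, against 3.66% of all genes. With VTP50469 it was -1.01 ± 0.15 for FCRL3 (adjusted p = 0.012), the 1 member called, against 0.509% of all genes, and without SuDHL10 VTP50469 replicate 2 the call was lost (-1.08, adjusted p = 0.16). With both drugs the difference was -1.69 ± 0.23 for FCRL1, -1.41 ± 0.18 for FCRL2, -2.29 ± 0.15 for FCRL3 and 1.15 ± 0.19 for FCRLB, beside 24.2% of all genes called, and these are descriptions since the comparison holds the one the genes were picked in. Without KARPAS422 both-drug replicate 1 they were -1.49 for FCRL1, -1.30 for FCRL2, -2.23 for FCRL3, 1.04 for FCRLB and -6.09 for FCRL5. All of these comparisons carry the difference in hours of treatment.

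The change with both drugs was also set against the sum of the single-drug changes. In SuDHL10 none of the 7 genes was called, while 0.0526% of all genes were (6 of 11409, and 508 with the replicate block). FCRL2 was 0.57 ± 0.15 above the sum (adjusted p = 0.53) and FCRL1 was -0.48 ± 0.18 (adjusted p = 0.53). In KARPAS422 FCRL5 was 1.66 ± 0.69 above the sum and FCRLB -0.49 ± 0.12, as descriptions, and FCRL3 was 0.04 ± 0.21. There 0 of 13223 genes (0%) were called by edgeR, 769 had an unadjusted p under 0.05, and DESeq2 called 28. Without both-drug replicate 1 of KARPAS422 edgeR called 4418 genes, FCRLB among them (-0.73), so this count rested on that library.

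MI-503 addressed the menin dependence in 4 lines, of which DB, Farage and SUDHL5 were not in the comparison the genes were picked in and KARPAS422 was, in other libraries. In KARPAS422, FCRL5 had 2.60 and 3.24 CPM with MI-503 and 2.64 and 3.67 CPM with DMSO, and the groups overlapped (-0.14 ± 0.20, adjusted p = 0.61). None of the 6 tested members was called, against 10.1% of all genes. FCRL3 was nearest, with 148.2 and 151.3 CPM against 104.4 and 105.1 CPM, a change of 0.51 ± 0.03 (adjusted p = 9.8e-07) that was under the fold threshold. FCRL2 had 289.1 and 283.2 CPM with MI-503 and 246.6 and 241.7 CPM with DMSO (0.23 ± 0.03, adjusted p = 8.7e-05), also under it.

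In DB, FCRL5 had 17.2 and 16.2 CPM with MI-503 and 9.29 and 8.39 CPM with DMSO. It rose by 0.93 ± 0.09 on the log2 scale (adjusted p = 2.7e-06). FCRL3 had 42.5 and 46.8 CPM with MI-503, against 118.4 and 119.0 CPM with DMSO, and fell by 1.41 ± 0.05 (adjusted p = 2.1e-10). FCRLB had 3.11 and 3.06 CPM with MI-503, against 9.90 and 11.4 CPM with DMSO, and fell by 1.78 ± 0.14 (adjusted p = 2.4e-07). These 3 of 6 tested members were called, against 26.4% of all genes, and FCRL3 and FCRL5, in the same cluster, moved in opposite directions. FCRLA had 474.8 and 487.1 CPM with MI-503, against 641.9 and 641.5 CPM with DMSO (-0.41 ± 0.03), under the fold threshold. The DB libraries with MI-503 held 52236459 and 46170498 counts and those with DMSO 14695930 and 15474692. When all 4 were thinned to the smallest total, FCRL5 was 1.06, FCRL3 -1.42 and FCRLB -1.86 on the log2 scale, and each was still called.

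In Farage, FCRL3 had 22.6 and 27.6 CPM with MI-503 and 13.8 and 13.6 CPM with DMSO. It rose by 0.85 ± 0.10 (adjusted p = 0.00029) and was the 1 member called, against 3.54% of all genes. FCRL5, highest in this line, had 113.3 and 115.8 CPM with MI-503 and 86.6 and 81.2 CPM with DMSO, a change of 0.41 ± 0.05 (adjusted p = 0.00048) under the fold threshold. Without the library that held erythroid and epithelial markers, Farage MI-503 replicate 1, FCRL3 was 0.94 and still called, and FCRL5 was 0.39.

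In SUDHL5, FCRL1 had 3.09 and 2.63 CPM with MI-503 and 7.66 and 6.62 CPM with DMSO, and fell by 1.37 ± 0.17 (adjusted p = 0.00016). It was the 1 member called, against 14.1% of all genes. FCRLA had 253.8 and 275.8 CPM with MI-503, against 188.8 and 182.0 CPM with DMSO (0.53 ± 0.04, adjusted p = 7.4e-06), under the fold threshold. FCRL5 had 51.1 and 53.4 CPM with MI-503 and 50.4 and 45.2 CPM with DMSO (0.13 ± 0.06, adjusted p = 0.087). FCRL4 was not tested in this experiment, with 0 to 4 counts in every library, where 3 counts equal 0.0522 to 0.232 CPM.

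**Figure D3:**
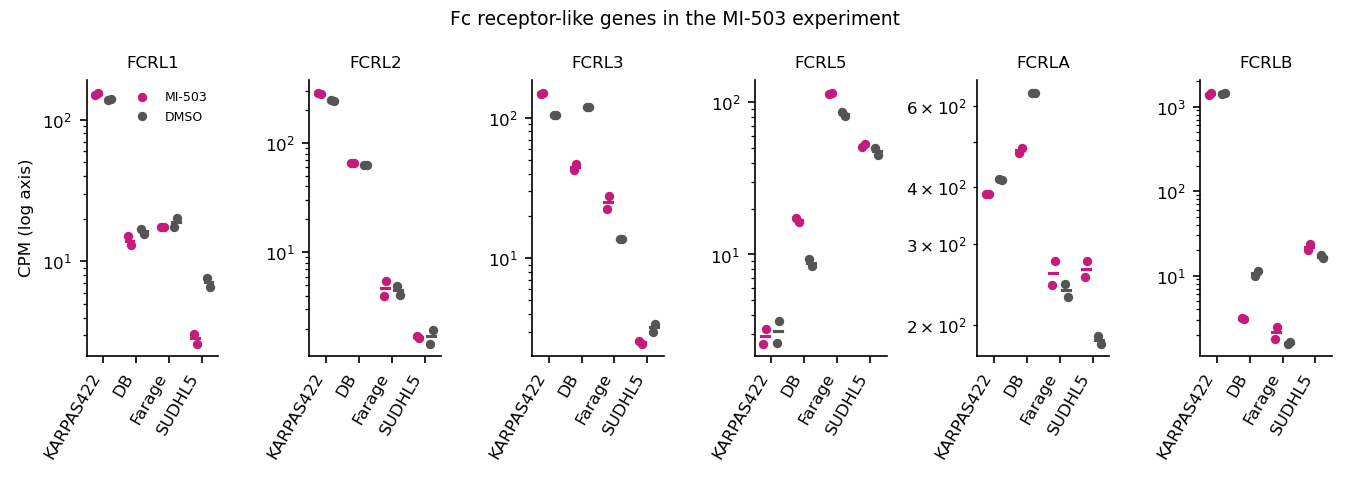
CPM of the 6 tested genes in the MI-503 experiment on log axes, with MI-503 left of DMSO in each line. Points are libraries and bars the means of 2. FCRL5 lay highest in Farage and lowest in KARPAS422, whereas FCRL2 and FCRLB lay highest in KARPAS422.

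The response to MI-503 was compared between lines in 1 fit. The change in KARPAS422 minus that in DB was 1.93 ± 0.09 for FCRL3 (adjusted p = 4.2e-11), 1.74 ± 0.14 for FCRLB (adjusted p = 2.2e-08) and -1.08 ± 0.19 for FCRL5 (adjusted p = 0.00027). These 3 members were called, against 16% of all genes. In the fit of each line, FCRLB was -1.78 ± 0.14 in DB and -0.05 ± 0.03 in KARPAS422. FCRL3 was -1.41 ± 0.05 in DB and 0.51 ± 0.03 in KARPAS422, and FCRL5 was 0.93 ± 0.09 and -0.14 ± 0.20. Between KARPAS422 and Farage FCRL5 alone was called (-0.61 ± 0.17, adjusted p = 0.022), against 5.74% of all genes. That call was lost without KARPAS422 MI-503 replicate 1 (-0.41), KARPAS422 DMSO replicate 2 (-0.34), Farage MI-503 replicate 2 (-0.58) or Farage DMSO replicate 2 (-0.56). Without Farage MI-503 replicate 1 FCRL5 was -0.65 and FCRLB was also called (-0.70, adjusted p = 0.058, against -0.57 with it). KARPAS422 minus SUDHL5 gave 3 called members, FCRL1 (1.55 ± 0.15), FCRL3 (0.83 ± 0.18) and FCRLA (-0.62 ± 0.08), against 9.95% of all genes, and FCRLA was under the fold threshold without SUDHL5 MI-503 replicate 2 (-0.55) or SUDHL5 DMSO replicate 2 (-0.58). SUDHL5 minus Farage, both with wildtype EZH2, gave FCRL1 (-1.32 ± 0.17) and FCRL3 (-1.23 ± 0.19), against 11.2% of all genes. These comparisons share libraries of the lines they name.

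**Figure D4:**
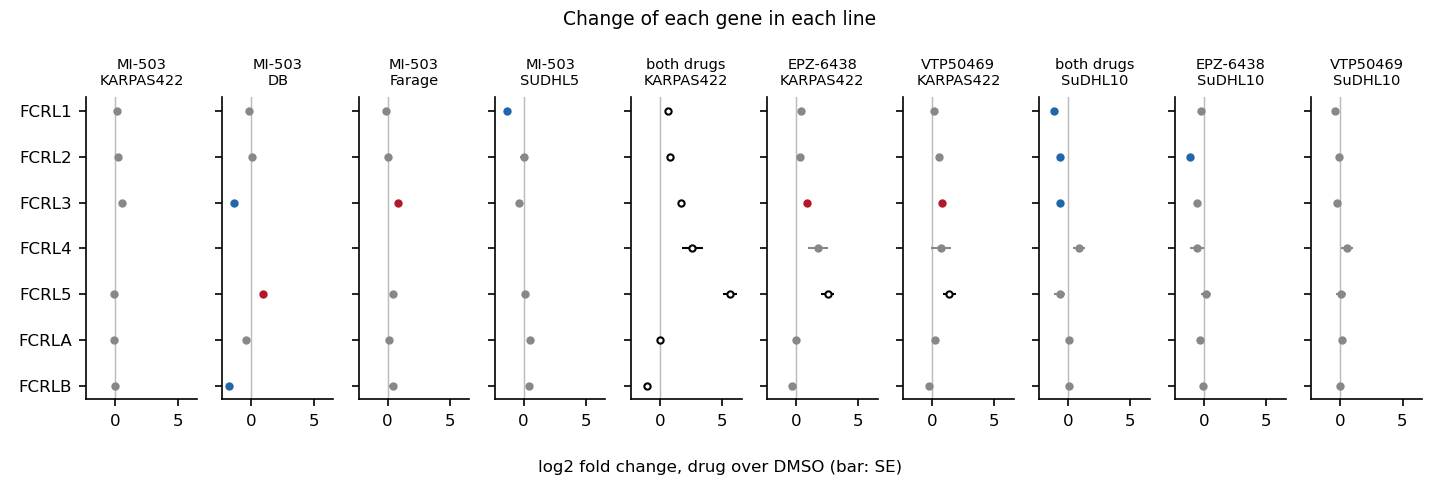
log2 fold change of each gene, drug over DMSO, in each line, with the SE as a bar. Red and blue points passed the call thresholds in the higher and lower direction, grey points did not, and open points are descriptions without a test. FCRL5 lay at 5.60 with both drugs in KARPAS422, and at -0.68 in SuDHL10.

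The lines differed in the family before any drug. Among DMSO libraries of the MI-503 experiment FCRL5 stood, low to high, in the order KARPAS422 (2.64 and 3.67 CPM), DB (9.29 and 8.39 CPM), SUDHL5 (50.4 and 45.2 CPM) and Farage (86.6 and 81.2 CPM). Each line differed from the next in that order, KARPAS422 from DB by -1.45 ± 0.15, DB from SUDHL5 by -2.49 ± 0.12 and SUDHL5 from Farage by -0.85 ± 0.08 on the log2 scale, all called. The 2 lines with wildtype EZH2 thus held the higher levels of FCRL5, with 2 lines of each kind and no test of the genotype.

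FCRL2 had another order, with 246.6 and 241.7 CPM in KARPAS422, 62.5 and 63.3 CPM in DB, 4.92 and 4.06 CPM in Farage and 1.46 and 1.95 CPM in SUDHL5. FCRL1 was highest in KARPAS422 (138.0 and 140.2 CPM) and lowest in SUDHL5 (7.66 and 6.62 CPM). FCRL3 was about level in KARPAS422 (104.4 and 105.1 CPM) and DB (118.4 and 119.0 CPM), where the difference of -0.15 ± 0.04 was under the fold threshold, and reached 13.8 and 13.6 CPM in Farage and 3.002 and 3.41 CPM in SUDHL5. FCRLB spanned the widest range, with 1418 and 1465 CPM in KARPAS422, against 1.57 and 1.64 CPM in Farage, a difference of 9.74 ± 0.07 on the log2 scale. FCRLA was present in every line, lowest in SUDHL5 (188.8 and 182.0 CPM) and highest in DB (641.9 and 641.5 CPM).

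Many members and many other genes were called between lines. Of 6 tested members 5 were called in KARPAS422 against DB (52.6% of all genes), 6 in KARPAS422 against Farage (51%), 6 in KARPAS422 against SUDHL5 (51.4%), 5 in DB against Farage (56.2%), 6 in DB against SUDHL5 (54.9%) and 5 in SUDHL5 against Farage (47.5%). In the combination experiment SuDHL10 differed from KARPAS422 in 3 of 7 members, with 43.4% of all genes called. FCRLB had 34.2 and 29.9 CPM in SuDHL10 and 1655 and 1834 CPM in KARPAS422 (-5.83 ± 0.16), FCRL1 was -1.71 ± 0.16 and FCRL2 -1.48 ± 0.13. FCRL5 was low in both lines.

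Divided by the exon length of GENCODE v44, which may not be the annotation used in the counting, FCRLB was the highest member in DMSO cells of KARPAS422, at 552.1 ± 12.6 and 668.1 ± 48.6 CPM per kb in the MI-503 and combination experiments (SD, n = 2). FCRLA was highest per kb in each of the other 4 lines, from 56.6 ± 1.47 CPM per kb in SUDHL5 to 195.9 ± 0.0788 CPM per kb in DB. FCRL5 came next after FCRLA per kb in Farage (6.76 ± 0.31). KARPAS422 DMSO cells had 2.64 and 3.67 CPM of FCRL5 in the MI-503 experiment and 0.156 and 0.514 CPM in the combination experiment. The experiments differ in hours of treatment and in the genes of their tables, so these levels were not compared by a test.

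Genes with the pattern most like FCRL5 were ranked by Pearson's r over 8 group means of log2(CPM + 1), as a description in which groups share lines. In the MI-503 experiment they were PAQR8 (r = 0.993), UBE2F (0.991), TTC24 (0.990), DDR1 (0.988) and TCIRG1 (0.987) of 11738 genes. In the combination experiment they were SLC2A12 (0.993), TBC1D8 (0.990), KLHL3 (0.987), CCR7 (0.987) and PLEKHG7 (0.987) of 10707 genes. The other members were all inversely related to FCRL5 in the MI-503 experiment, from -0.30 for FCRL4 to -0.93 for FCRL2. In the combination experiment FCRL3 had the highest value among them (0.87) and FCRLA the lowest (0.02).

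Other genes of the same setting were counted by list. Of 15 listed inhibitory receptors of B cells, 12 were tested in DB and 6 rose with MI-503, among them CD22, which restrains B cell receptor signaling (1.83 ± 0.04). The median of the list was 0.61, beside 0.02 for all genes, of which 26.4% were called. In SUDHL5 3 of 10 rose (14.1% of all genes called), led by CD72 (1.45 ± 0.08), in KARPAS422 1 of 11 rose (10.1%), and in Farage 1 of 11 fell (3.54%), SIGLEC10 (-0.96 ± 0.15). In KARPAS422 of the combination experiment the adhesion receptor PECAM1, which carries ITIMs, rose with EPZ-6438 (2.46 ± 0.15) and with VTP50469 (2.63 ± 0.14), and 3 of 9 tested genes of the list were called with EPZ-6438 (9.39% of all genes) and 1 of 9 with VTP50469 (2.47%). With both drugs 6 of 9 were higher (35.0% of all genes called), CEACAM1 the most (5.34 ± 0.40), and the median was 2.30 beside 0.10 for all genes. In SuDHL10 3 of 8 rose with both drugs (11.8% of all genes called), led by PECAM1 (1.87 ± 0.31).

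Genes of atypical memory B cells, the subset in which FCRL4 and FCRL5 are best known, gave 3 higher and 1 lower of 13 tested in KARPAS422 with EPZ-6438, led by SOX5 (1.30 ± 0.29) and ZEB2 (1.19 ± 0.13), both transcription factors, beside 9.39% of all genes called. The gene that fell was ITGB2, an integrin chain (-0.64 ± 0.12). With both drugs 5 were higher and 2 lower, beside 35.0% of all genes, the lower ones being ITGB2 (-1.10 ± 0.12) and MPP6 (-0.75 ± 0.17). ITGB2 with EPZ-6438 and MPP6 were named after their values were seen. In SuDHL10 2 of 10 rose with both drugs and none fell, beside 11.8% of all genes. With MI-503 the counts were 3 higher and 1 lower of 13 in KARPAS422 (10.1% of all genes called), 2 higher of 8 in DB (26.4%), 1 higher of 10 in Farage (3.54%) and 4 higher of 12 in SUDHL5 (14.1%). The share in DB was near that of all genes. The lower gene in KARPAS422 was TBX21, a transcription factor, at or under 0.296 CPM (-1.40 ± 0.59), also named after its value was seen. Among kinases, phosphatases and adaptors through which the tyrosine motifs signal, none of 21 was called with MI-503 in KARPAS422 (10.1% of all genes called) or Farage (3.54%). None of 20 was called with EPZ-6438 or VTP50469 in KARPAS422 (9.39% and 2.47%) or SuDHL10 (9.92% and 0%). In DB 5 rose and 2 fell of 21 with MI-503, beside 26.4% of all genes called. CD79B, a chain of the B cell receptor, was lower there (-0.98 ± 0.03). In SUDHL5 2 of 20 rose with MI-503 (14.1% of all genes called), the adaptor DOK3 (0.66 ± 0.05) and CD81 (0.64 ± 0.04). With both drugs BLNK, an adaptor, was higher (0.80 ± 0.16) and CD81 lower (-0.79 ± 0.11) of 20 in KARPAS422, beside 35.0% of all genes called. In SuDHL10 2 of 20 rose (11.8% of all genes called), the kinase FYN (3.499 ± 0.72) and the adaptor DOK1 (0.77 ± 0.19).

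Among the classical Fc receptors and their relatives, FCMR, the receptor for IgM, rose in Farage with MI-503 (1.07 ± 0.13) and in SuDHL10 with EPZ-6438 (0.98 ± 0.19). FCGR2A, an activating receptor for IgG, rose in KARPAS422 with MI-503 (0.77 ± 0.18) and was 1.90 ± 0.40 with both drugs. With MI-503 2 of 7 tested relatives were higher in KARPAS422 (10.1% of all genes called) and 2 of 6 in DB (26.4%). In Farage 1 of 6 was higher (3.54%), and in SUDHL5 1 of 5 was higher and 1 lower (14.1%). With EPZ-6438 1 of 3 was higher in SuDHL10 (9.92%) and 0 of 6 in KARPAS422 (9.39%). With both drugs 3 of 6 were higher in KARPAS422 (35.0%) and 2 of 3 in SuDHL10 (11.8%). Of genes that neighbour the 2 clusters, 5 of 14 were higher and 1 lower in KARPAS422 with both drugs (35.0% of all genes called), CD1C, an antigen-presenting molecule, being 1.38 ± 0.11. CD1C also rose there with VTP50469 (0.67 ± 0.11). Of 20 listed transcription factors of B cells, BACH2 rose with EPZ-6438 in KARPAS422 (0.62 ± 0.13) and in SuDHL10 (3.17 ± 0.34). In DB, MI-503 gave 4 higher and 6 lower of 20 (26.4% of all genes called), with IRF4 at 3.68 ± 0.27 and BCL6, the factor of germinal centre B cells, at -1.69 ± 0.03. Markers of other cell types also differed between the groups. Summed plasma cell markers in KARPAS422 were at 56.6 and 59.2 CPM with both drugs, 109.2 and 100.8 CPM with EPZ-6438, 101.9 and 99.1 CPM with VTP50469, and 144.7 and 142.1 CPM with DMSO. In SuDHL10 they were at 327.7 and 332.0 CPM with both drugs, against 263.5 and 209.1 CPM with DMSO. Single plasma cell markers went both ways in KARPAS422 with both drugs, 1 higher and 2 lower of 3 tested (35.0% of all genes called). There 3 of the 7 markers had 0 counts in each both-drug library. Of 2 tested in SuDHL10 with both drugs none was called (11.8% of all genes). Summed T and NK cell markers in SuDHL10 were at 8.88 and 11.2 CPM with both drugs, against 23.1 and 27.6 CPM with DMSO. In each of these sums the drug-treated libraries did not overlap with DMSO, and the share of all genes without overlap was not counted. The part of these markers in the changes of the family was not tested.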

How the data were processed

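RNA of 32 cell line libraries was sequenced after removal of ribosomal RNA. The authors deposited raw counts per gene, made with HISAT2 2.1.0 on hg38 and featureCounts 1.6.1. CASAVA 1.7 and Picard 2.23.1 appear in the submitters' processing notes without a stated step. Strand and annotation of the counting: not given in the sources used here. Near-identical family members may share reads. The 2 deposited sgRNA count tables were not used, as no guide targets these genes.

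Groups came from the labels, while doses and hours came from the study's methods. Counts were tested over all genes with edgeR 4.0.16 in R 4.3.3 (filterByExpr, TMM, glmQLFit, glmQLFTest, Benjamini-Hochberg adjustment), on the 2 groups of a line for MI-503, on the 4 groups of a line for the combination and on all libraries of an experiment for differences between lines. A call required adjusted p below 0.1 with a fold change over 1.5. SE is the log2 fold change over the root of F. CPM used TMM factors of each table of 16 libraries. Low values carry the counting error of their depth, and intervals cover counting error only. RLE factors, total counts, no filter, DESeq2 1.42.0, other sample sets, the replicate block and leaving out each library were tried, and thinned depth and a crossed pairing were added after seeing the data. The procedure was tested on simulated data. In the combination experiment the deviations of same-numbered libraries correlated in every pair of groups (0.19 to 0.799), which was taken as pairing. The reported tests fit no block, so their SE and adjusted p leave this pairing out, and the replicate block is the alternative that holds it. All 7 members are named in every comparison, and of each list up to 3 called genes of largest change among those of at least 1 CPM. The members and lists were chosen with earlier results of these data known.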

Additional observations from a re-analysis of the deposited data

Results flagged for a closer look

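These differences between lines in the response to a drug passed the direct test of the difference, by edgeR with Benjamini-Hochberg adjustment. With MI-503, KARPAS422 minus DB was 1.93 for FCRL3, -1.08 for FCRL5 and 1.74 for FCRLB on the log2 scale. KARPAS422 minus Farage was -0.61 for FCRL5. KARPAS422 minus SUDHL5 was 1.55 for FCRL1, 0.83 for FCRL3 and -0.62 for FCRLA, and SUDHL5 minus Farage was -1.32 for FCRL1 and -1.23 for FCRL3. With EPZ-6438, SuDHL10 minus KARPAS422 was -1.47 for FCRL2 and -1.43 for FCRL3, and with VTP50469 it was -1.01 for FCRL3. The last 3 compare 24 h with 48 h of treatment.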

How the results depend on the processing

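Counts of called members are given as the alternative against the reported count. With total counts alone, 1 member against 3 was called in SuDHL10 with both drugs, since FCRL2 (-0.56) and FCRL3 (-0.54) were then under the fold threshold. In SuDHL10 with both drugs against EPZ-6438 alone, 2 against 1 were called with no filter and 2 with the replicate block, FCRL4 being added. For MI-503, KARPAS422 minus Farage, 0 against 1 were called with RLE factors, with total counts and with DESeq2, FCRL5 being -0.57, -0.58 and -0.56. DESeq2 called 4 against 2 for EPZ-6438 and 2 against 1 for VTP50469, SuDHL10 minus KARPAS422. Leaving out 1 library at a time gave 0 to 2 called members for EPZ-6438 in KARPAS422 and 1 to 2 in SuDHL10, 0 to 1 for VTP50469 in KARPAS422, 3 to 6 for both drugs in KARPAS422 and 1 to 4 in SuDHL10. It gave 0 to 4 for both drugs against either single drug in KARPAS422, 0 to 2 against EPZ-6438 and 0 to 1 against VTP50469 in SuDHL10, and 0 to 1 beyond the sum in KARPAS422. For differences between lines it gave 0 to 2 for KARPAS422 minus Farage, 2 to 4 for EPZ-6438 and 0 to 2 for VTP50469. FCRL1 with both drugs against VTP50469 in KARPAS422 ran from -0.034 to 0.80, a change of sign. Of called values, 719 kept their call without 1 library and 53 lost it, and 449 kept it under other alternatives and 11 lost it. Of values not called, 18 and 10 gained a call. Signs changed in 76 cases, all among values not called. These tallies and the ranges above include FCRL5 in KARPAS422 of the combination experiment and every member with both drugs there. Those values are descriptions, and nothing is read from how they fared. In SUDHL5 with MI-503 the replicate block called 1834 genes and the crossed replicate block 1981, against 1892, and 1 member, FCRL1, each time. In the combination experiment the block called 3708 against 1605 genes with both drugs over EPZ-6438 and 4903 against 3180 over VTP50469 in KARPAS422, and 604 against 273 over EPZ-6438 in SuDHL10. It changed no member's call other than those of FCRL4 given above. Of all genes in Farage with MI-503, 891 were called with no filter and 218 with DESeq2, against 448. With both drugs in KARPAS422, fits of only those groups called 3063 against 4624 genes, and 857 against 1605 over EPZ-6438. The difference for VTP50469 called 124 genes with RLE and 221 with DESeq2, against 70. Total counts moved the median of all genes with both drugs in KARPAS422 by 0.23, and the share of higher calls was then 76.0%, against 56.7%. FCRLB over either single drug was there under the fold threshold (-0.58 and -0.53). FCRL4 rests on few counts, as does FCRL5 in SuDHL10 and in KARPAS422 of the combination experiment without both drugs, which limits their precision. In KARPAS422 of the MI-503 experiment FCRL5 had 88 to 211 counts per library. The causes were not tested.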
